A study of Mus musculus with 2 samples.

Results

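The genes described here encode 10 plasma carrier and acute-phase proteins of the liver: Ttr, Rbp4, Ahsg, Fetub, Ambp, Orm1, Orm2, Hp, Hpx and Cp. They were chosen by symbol, matched through a GENCODE mouse annotation, and all 10 were found among the 43346 mouse genes of both deposited gene tables. The sequenced material was polyadenylated RNA longer than 200 nucleotides, read as stranded pairs, from embryonic day 14 (E14) livers of the mouse strain C57BL/6J, with male and female littermates pooled. The study holds 1 group of 2 libraries, biological replicate 2 and biological replicate 1, with no treatment or mutant. Both libraries carry the same donor entry and nothing states that they came from separate litters, so the spread and every p between them measure only the difference between these 2 libraries, which may be technical.

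Hepatocytes secrete these proteins into the blood. Transthyretin, made by Ttr, carries thyroid hormone and holds the retinol carrier RBP4, made by Rbp4, in the circulation. Ahsg and Fetub encode fetuins of the cystatin superfamily: fetuin-A keeps calcium phosphate in solution, and fetuin-B inhibits a protease that hardens the egg coat. Ambp encodes a precursor that is cut into the lipocalin alpha-1-microglobulin and the protease inhibitor bikunin, and Orm1 and Orm2 encode orosomucoids, acute-phase lipocalins. Haptoglobin (Hp) binds free hemoglobin, hemopexin (Hpx) binds free heme, and ceruloplasmin (Cp) is a copper-containing ferroxidase. In the acute-phase response of adult liver, interleukin 6, interleukin 1 and glucocorticoids act through STAT3, C/EBP factors and the glucocorticoid receptor on many genes of this kind, whereas Ahsg and Ttr are negative acute-phase genes in many mammals.

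The E14 liver libraries differed in depth, with 154601605 expected counts in replicate 2 against 100477392 in replicate 1. Mouse genes held 149348514 counts of replicate 2 and 97174777 of replicate 1. All 12 listed markers of hepatoblasts and hepatocytes had at least 1 TPM, the authors' measure of a transcript's share of all transcripts, in both libraries. They summed to 25888 TPM in replicate 2, against 22816 TPM in replicate 1. Markers of the red cell lineage, which occupies the liver at this stage, summed to 440480 TPM in replicate 2, against 488006 TPM in replicate 1, so the TPM of every other gene is a share of what the globins leave. In bulk RNA fewer cells of a type and less RNA per cell cannot be told apart. The 8 neutrophil markers summed to 1912 TPM in replicate 2, against 1307 TPM in replicate 1, and the 7 skeletal muscle markers to 1.81 TPM in replicate 2, against 44.9 TPM in replicate 1. The 9 macrophage markers summed to 239.95 TPM in replicate 2 (192 in replicate 1), the 7 endothelial markers to 88.0 TPM in replicate 2 (77.7 in replicate 1), the 6 stellate and mesenchymal markers to 112 TPM in replicate 2 (149 in replicate 1) and the 6 cholangiocyte markers to 37.0 TPM in replicate 2 (37.2 in replicate 1). The cholangiocyte sum was mostly Tspan8 (30.1 ± 2.57 TPM, SD, n = 2), while 4 of the 6 genes were lower in replicate 2 by the exact test of counts described below, with a median log2 ratio of -0.52, among them Krt19 at 1.28 TPM in replicate 2, against 4.2 TPM in replicate 1. The neutrophil, skeletal muscle and cholangiocyte markers thus moved with the library, as did the stellate and mesenchymal ones, of which 5 of 6 were lower in replicate 2 by the same test, and the macrophage ones, of which 7 of 9 were higher. By that test 8 of the 12 hepatoblast and hepatocyte markers were higher in replicate 2 and 3 lower, and 5 of the 9 red cell markers were higher and 4 lower. Of the 7 endothelial markers 3 were higher and 2 lower. Over all genes tested, 40.3% were called in either direction. The part of these cell types in the differences between the libraries given below was not tested. Of tissues outside the liver that make Ttr or Rbp4, choroid plexus and brain was read from 7 genes. They summed to 66.7 TPM in replicate 2, against 57.7 TPM in replicate 1. Of these, Aqp1, also a gene of red cells, had 48.6 ± 5.71 TPM and Gfap 12.4 ± 0.94 TPM (SD, n = 2). Which cells gave the reads of Aqp1 and Gfap was not tested. The other 5 averaged at most 0.725 TPM, the value of Tubb3, and Otx2 had 0 counts in both libraries and Kcnj13 1 count in all. Yolk sac endoderm was read from 6 genes that summed to 783 TPM in replicate 2, against 657 TPM in replicate 1, nearly all of it Rbp4. Of the others, Sox17 had 3.83 TPM in replicate 2 and 3.42 TPM in replicate 1. Amn had 0.7 TPM in replicate 2 and 0.73 TPM in replicate 1, and Apoa4 0.32 TPM and 0.5 TPM. Lrp2 and Cubn stayed at or under 0.06 TPM in both libraries. The 7 gut and pancreas markers summed to 14.1 TPM in replicate 2, against 15.6 TPM in replicate 1. The highest were Fabp2, with 8.7 TPM in replicate 2 and 8.73 TPM in replicate 1, and Cela1, with 4.26 TPM and 3.67 TPM. Of the 5 tested, 0 were higher and 2 lower in replicate 2 by the exact test. Ctrb1, 1 of those lower, had 0.04 TPM in replicate 2, against 1.58 TPM in replicate 1.

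Start-site windows are shown first because the members that lie beside each other, and the alternative starts of single members, differed widely in level. The windows are RefSeq sequences of GRCm38.p6, read on the strand of the gene, and each holds 300 bases that begin 250 bases before the start site. Of the 10 members, 7 had a window, 10 windows in all. Capitals mark letters found on either strand that match a TATA box (TATAAA) or a core motif of STAT (TTCNNNGAA), C/EBP (TTGCNNAA), HNF1 (GTTAAT), forkhead (TGTTTA) or glucocorticoid receptor (TGTTCT) binding. Overlapping matches run together.
Ahsg at chr16:22891765-22892064, plus strand: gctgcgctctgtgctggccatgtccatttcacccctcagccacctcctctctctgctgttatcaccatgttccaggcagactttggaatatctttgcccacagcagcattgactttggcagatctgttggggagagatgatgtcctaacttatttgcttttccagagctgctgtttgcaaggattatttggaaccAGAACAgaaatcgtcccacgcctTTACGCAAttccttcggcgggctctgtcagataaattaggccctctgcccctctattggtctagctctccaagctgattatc
Fetub, inner start, where Fetub-201 begins, at chr16:22919972-22920271, plus strand: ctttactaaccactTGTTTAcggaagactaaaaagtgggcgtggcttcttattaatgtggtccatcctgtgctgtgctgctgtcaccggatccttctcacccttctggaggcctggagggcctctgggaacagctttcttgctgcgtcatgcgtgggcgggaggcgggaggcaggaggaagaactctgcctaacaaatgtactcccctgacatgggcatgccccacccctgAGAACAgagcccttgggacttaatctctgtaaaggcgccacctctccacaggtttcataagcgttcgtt
Ambp at chr4:63154123-63154422, minus strand: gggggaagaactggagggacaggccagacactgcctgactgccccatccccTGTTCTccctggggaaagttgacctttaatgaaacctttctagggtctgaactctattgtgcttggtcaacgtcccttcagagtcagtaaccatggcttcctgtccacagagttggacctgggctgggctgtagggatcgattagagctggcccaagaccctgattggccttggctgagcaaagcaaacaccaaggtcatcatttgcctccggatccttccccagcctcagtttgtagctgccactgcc
Orm2 at chr4:63362199-63362498, plus strand: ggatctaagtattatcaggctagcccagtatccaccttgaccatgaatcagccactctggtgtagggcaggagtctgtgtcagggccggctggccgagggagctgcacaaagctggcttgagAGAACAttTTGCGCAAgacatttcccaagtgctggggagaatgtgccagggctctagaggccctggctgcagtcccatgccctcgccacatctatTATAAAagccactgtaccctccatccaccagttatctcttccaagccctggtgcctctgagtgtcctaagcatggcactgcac
Rbp4, inner start, at chr19:38124762-38125061, minus strand: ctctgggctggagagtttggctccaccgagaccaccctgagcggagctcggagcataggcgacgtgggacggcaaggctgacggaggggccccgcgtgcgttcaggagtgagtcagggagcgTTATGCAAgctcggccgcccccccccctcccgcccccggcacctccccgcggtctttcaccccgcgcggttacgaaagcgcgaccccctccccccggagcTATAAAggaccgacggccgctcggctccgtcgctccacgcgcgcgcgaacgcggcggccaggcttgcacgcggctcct
Rbp4, outer start, at chr19:38125272-38125571, minus strand: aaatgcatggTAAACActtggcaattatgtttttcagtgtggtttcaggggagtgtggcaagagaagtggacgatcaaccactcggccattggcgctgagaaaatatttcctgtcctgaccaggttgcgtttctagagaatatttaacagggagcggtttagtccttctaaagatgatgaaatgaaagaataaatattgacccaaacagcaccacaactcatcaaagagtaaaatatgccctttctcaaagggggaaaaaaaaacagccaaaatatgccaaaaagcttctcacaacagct

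Among the 10 member windows, TATAAA was found in 4, against 13.6% of all 32851 windows. The C/EBP-type letters were found in 5 (10.8% of all windows), the glucocorticoid receptor-type letters in 5 (19.0%), the forkhead-type letters in 2 (13.4%), the HNF1-type letters in 1 (7.10%) and the STAT-type letters in 0 (8.30%). Several windows belong to the same gene, and the 2 Cp windows overlap, so these counts are a description. The Orm2 window, of a gene with no counts in either library, held 3 of the 6 motifs, with TATAAA 33 bases before the start. The Ahsg window, of the member with the highest level, held 2 of the 6, and TATAAA was not among its letters. The inner Rbp4 window had a GC content of 72.0% and TATAAA 28 bases before the start, whereas the outer window had a GC content of 40.7% and no TATAAA. The median GC content over all windows was 52.7%. In Fetub it was the outer window, not printed above, that had TATAAA, 31 bases before the start, and the inner window had none. Fetub-204, which starts at that outer start, was listed at 0 TPM in both libraries.

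Members spanned from a mean of 938 TPM to no counts in either library. Ahsg was highest, with 1005 TPM in replicate 2 and 872 TPM in replicate 1 (938 ± 94.2 TPM, SD, n = 2), and it ranked 79 among 21474 protein-coding genes by mean TPM. Ttr had 835 TPM in replicate 2 and 737 TPM in replicate 1 (786 ± 69.9 TPM), and ranked 97. Ambp had 751 TPM in replicate 2 and 689 TPM in replicate 1 (720 ± 43.9 TPM). Rbp4 had 778 TPM in replicate 2 and 652 TPM in replicate 1 (715 ± 89.3 TPM). These 4 stood close together, and among them only Ahsg had both libraries above both libraries of the others: the ranges of Ttr and Ambp overlapped, as did those of Ambp and Rbp4, whose order turned round between the libraries.

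The heme and hemoglobin scavengers were lower. Hpx had 207 TPM in replicate 2 and 168 TPM in replicate 1 (188 ± 27.7 TPM, SD, n = 2), and Rbp4, the next member above it, had 3.81 times its mean. Hp had 31.9 TPM in replicate 2 and 27.8 TPM in replicate 1 (29.8 ± 2.95 TPM), so that the hemopexin transcript stood at 6.29 times the haptoglobin transcript. Cp had 7.95 TPM in replicate 2 and 7.96 TPM in replicate 1, and ranked 5885 among protein-coding genes. Fetub had 1.18 TPM in replicate 2 and 0.97 TPM in replicate 1 (1.08 ± 0.148 TPM, SD, n = 2), from 269 counts in replicate 2 and 158 in replicate 1. From Hpx down to Fetub each member had both libraries below both libraries of the member before it in the order.

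The orosomucoid genes were at or near the limit of detection. Orm1 had 3 counts in replicate 2 and 1 count in replicate 1, and Orm2 had 0 counts in both. For Orm2 a count of 0 allows up to 3 counts, which at its length is 0.0301 TPM in replicate 2 and 0.0434 TPM in replicate 1, for counting error only. Orm3, another orosomucoid gene of the mouse that lies between them, also had 0 counts in both libraries. The annotated Orm1 and Orm2 transcripts are 91.0% identical over 775 bases, and Orm3 is 86.5% identical to Orm1 and 88.5% to Orm2. How reads from such similar copies were divided in the counting was not tested. The posterior SD of the Orm1 count, as deposited, was 0 in both libraries. The members together summed to 3618 TPM in replicate 2, against 3154 TPM in replicate 1 (3386 ± 328 TPM, SD, n = 2), which was 0.339% of all TPM. Ahsg, Ttr, Ambp, Rbp4 and Hpx held 98.9% of that sum in replicate 2 and 98.8% in replicate 1. The sum was 0.347 times the TPM of albumin (Alb) in replicate 2 and 0.346 times in replicate 1. Relative to alpha-fetoprotein (Afp) it was 0.464 in replicate 2 and 0.471 in replicate 1.

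**Figure D1:**
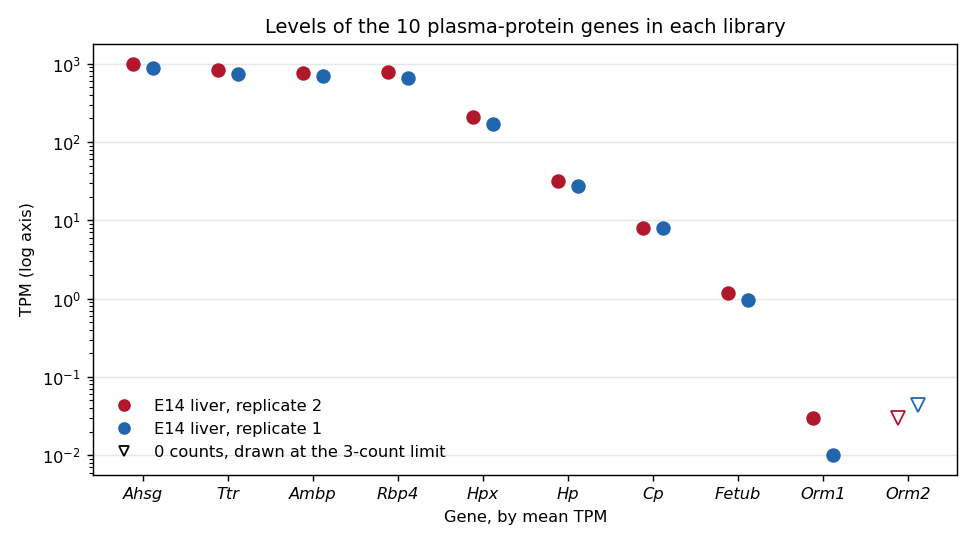
TPM (log axis) of each member, ordered by mean, in E14 liver replicate 2 (red, left) and replicate 1 (blue, right), with open triangles for libraries at 0 counts drawn at the 3-count limit. Ahsg, Ttr, Ambp and Rbp4 sit between 652 and 1005 TPM, and the levels then step down to Fetub near 1 TPM and Orm1 with 3 and 1 counts.

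Genes nearest in level were found over both libraries by distance in log2(TPM + 0.1), as a statement of level only. The nearest protein-coding genes to Ahsg were Rpl7 (938 ± 83.6 TPM, SD, n = 2) and Ubb, and those to Ttr were mt-Nd2 and Rpl3. Ambp lay near H2afz in level. Rbp4 lay nearest to Gm11808 and to Ambp. Hpx lay nearest to the erythroid factor Klf1 (184 ± 24.0 TPM, SD, n = 2) and to Eno1, and Hp to Tmod1 and Nprl3. Cp lay nearest to Ell and Lgals2, and Fetub shared its rounded values with Ell3 and Gm3604. For Orm1, 45 genes had the same values, so none is named.

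Neighbouring genes at the loci of the members differed by orders of magnitude. Ahsg (GRCm38, chr16:22891277-22899449, plus strand) ends 18884 bases before Fetub (chr16:22918334-22939778, plus strand), and Ahsg stood at 852 times the TPM of Fetub in replicate 2 and 899 times in replicate 1. The genes that follow are also of the cystatin superfamily: Hrg, the histidine-rich glycoprotein, had 0.29 TPM in replicate 2 and 0.22 TPM in replicate 1, whereas the kininogen genes Kng2 and Kng1 averaged 12.3 ± 0.283 TPM and 216 ± 13.1 TPM (SD, n = 2). Levels along these 5 genes were thus high at both ends and lowest at Hrg. On chromosome 4, Ambp (chr4:63143275-63154799, minus strand) is followed by Kif12 at 4.77 ± 0.170 TPM and Col27a1 at 3.39 ± 0.191 TPM (SD, n = 2), and then, after 189760 bases in all, by Orm1 (chr4:63344560-63348163, plus strand), Orm3 and Orm2 (chr4:63362449-63365878, plus strand). The other members lie apart, Rbp4 at chr19:38116629-38125281 (minus strand), Hpx at chr7:105591613-105600137 (minus), Hp at chr8:109575128-109579172 (minus), Cp at chr3:19957054-20009145 (plus) and Ttr at chr18:20665280-20674321 (plus).

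**Figure D2:**
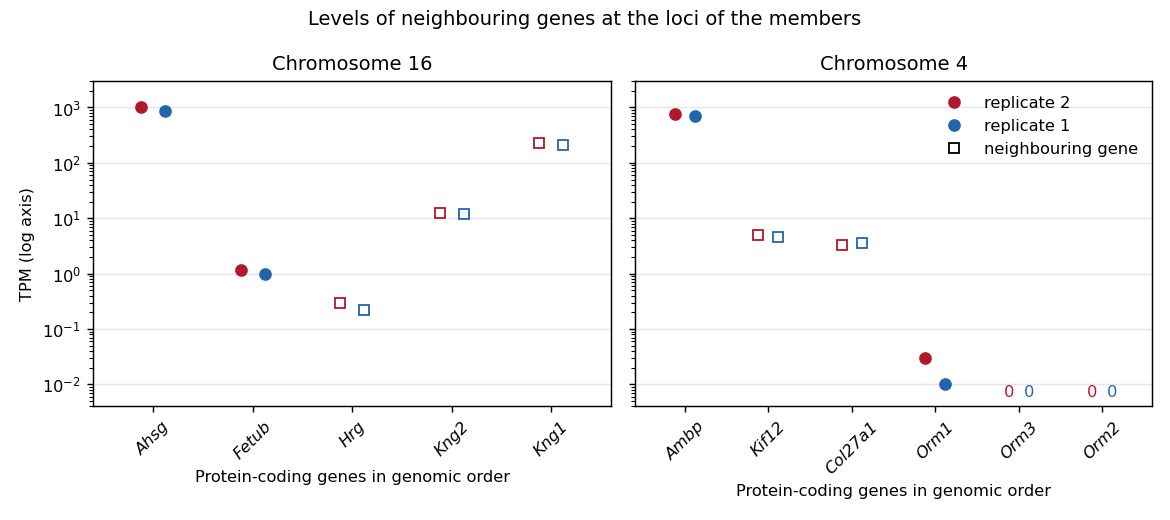
TPM (log axis) of the protein-coding genes in genomic order from Ahsg to Kng1 on chromosome 16 and from Ambp to Orm2 on chromosome 4, in replicate 2 (red, left) and replicate 1 (blue, right), with members filled and neighbouring genes open. Fetub and Hrg lie near or under 1 TPM between Ahsg and Kng1, and the 3 orosomucoid genes, with 0 printed where no count was found, lie at the bottom beside Ambp at 720 TPM.

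The libraries were compared by the log2 ratio of counts, replicate 2 over replicate 1, with library sizes scaled by TMM and with exact 95% counting intervals. Of the members, 8 had at least 10 counts in total and were tested, and 0 of the 8 differed by 1.5-fold or more, against 16.2% of the 18572 genes tested. With an adjusted p under 0.05 in the exact binomial test, which takes counting error alone, 5 of the 8 were called, against 40.3% of all genes tested. Hpx was higher in replicate 2 by 0.16 (0.14 to 0.18), with 46853 counts in replicate 2 and 26304 in replicate 1 (exact test, adjusted p = 3.8e-44). Rbp4 was higher by 0.11 (adjusted p = 2.0e-44 by the exact test), Ahsg by 0.06 (6.0e-33) and Ttr by 0.04 (2.3e-08). Ambp was called lower in replicate 2, at -0.02 (exact test, adjusted p = 0.0027), but was higher there, at 0.03, when library totals took the place of TMM. Hp, at 0.06 (exact test, adjusted p = 0.113), Cp, at -0.09 (0.115), and Fetub, at 0.09 with an interval from -0.20 to 0.38 (0.684), did not pass. These 3 had fewer counts than the 5 called: 6440, 2597 and 269 in replicate 2. A test of counting error alone calls smaller ratios at larger counts. Among genes with at least 100 counts, 47.0% passed. The median over the 8 members was 0.06, and over all genes tested it was -0.00045.

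Counting error alone understates the spread between libraries. With a common dispersion estimated from the pair, a biological coefficient of variation of 0.191, edgeR's negative binomial exact test called 0 of the 8 members, with 0 at an unadjusted p under 0.05, against the 5 called with counting error alone. That dispersion was estimated from the same difference between the 2 libraries that the test then judged. Small ratios could therefore hardly be called, so the 0 is not a result about the members. Unscaled TPM was higher in replicate 2 for 8 of the 10 members. Over the 14528 genes with at least 100 counts, the median log2 ratio of unscaled TPM was 0.15, against 0.01 with TMM.

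The lists of related genes held 92 tested genes, of which 1 was at 1.5-fold or more higher in replicate 2 and 4 were at 1.5-fold or more lower. By the exact test 37 of them were higher in replicate 2 and 14 lower, with a median log2 ratio of 0.06. Over all genes tested, 16.2% were at 1.5-fold or more and 40.3% passed the exact test, in either direction. With a filter of 100 counts 47.0% passed. These shares stand beside the counts given for each list below, which are a description. All log2 ratios in the account of the lists are TMM ratios of counts, replicate 2 over replicate 1.

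**Figure D3:**
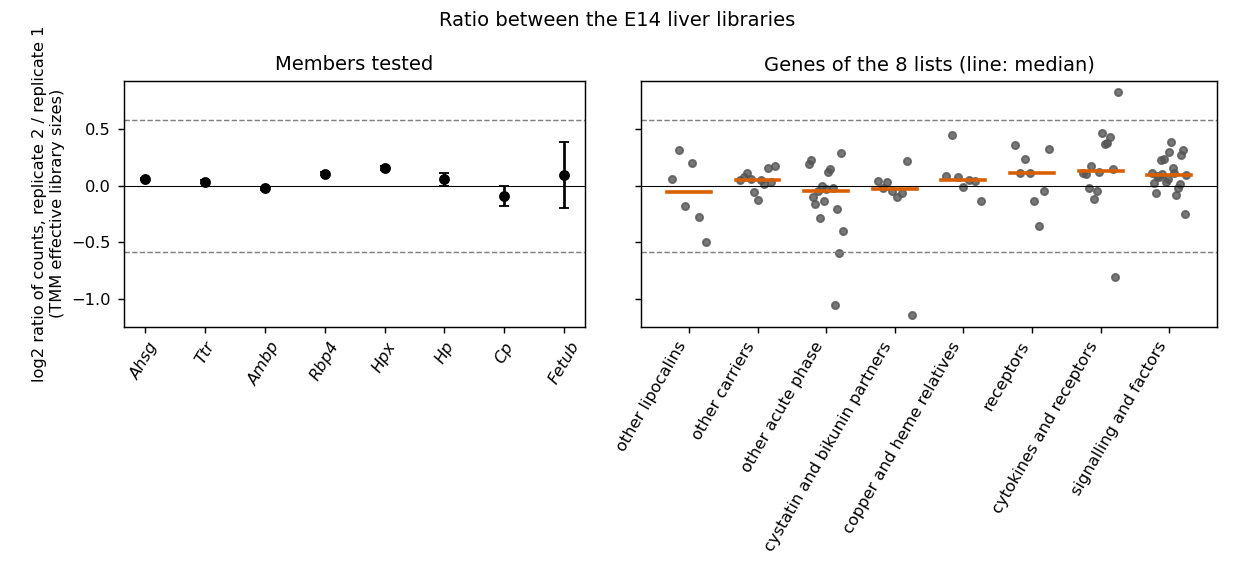
log2 ratio of counts, replicate 2 over replicate 1, for the 8 members tested with exact 95% counting intervals (left) and for the tested genes of the 8 lists with the median of each list as a line (right), and dashed lines at 1.5-fold. All 8 members lie between -0.09 and 0.16, inside the dashed lines, and 5 of the 92 list genes lie beyond them.

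Other carriers of plasma were the most abundant of these lists. Of 11 genes, 8 stood at 100 TPM or more in both libraries. Alb had 10440.5 TPM in replicate 2 and 9112 TPM in replicate 1, and Afp had 7789.5 TPM in replicate 2 and 6698 TPM in replicate 1. Transferrin (Trf) averaged 2099 ± 145 TPM (SD, n = 2). Serpina7, the thyroxine-binding globulin and so a partner of Ttr in hormone transport, was lowest at 2.39 ± 0.184 TPM (SD, n = 2), whereas Ttr stood at 786 TPM. In replicate 2, 6 were higher and 2 lower by the exact test, with a median ratio of 0.05.

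Among 10 other lipocalins and retinol-binding proteins, Apom, an apolipoprotein of the lipocalin fold, was highest at 302 ± 31.0 TPM (SD, n = 2), followed by Lcn2, which binds bacterial siderophores, at 32.4 ± 7.30 TPM. Orm3, Lcn12 and Rbp7 had 0 counts in both libraries. Of 6 tested, 3 were higher and 2 lower in replicate 2 by the exact test.

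Other acute-phase genes did not share 1 level. Of 19 genes, 8 were at 100 TPM or more in both libraries. The metallothioneins Mt1 and Mt2, which bind zinc and copper, averaged 2168 ± 369 TPM and 1385 ± 257 TPM (SD, n = 2), and the fibrinogen gene Fgg 239 ± 5.06 TPM. The serum amyloid A gene Saa1 had 0 counts in both libraries and Saa2 1 count, as low as the orosomucoids, and Saa3 had 1.14 ± 0.240 TPM. Hamp, which encodes the iron hormone hepcidin, was lower in replicate 2, at 7.36 TPM against 13.6 TPM in replicate 1 (log2 ratio -1.05, exact test, adjusted p = 1.9e-15). Saa3, at a log2 ratio of -0.59, did not pass the exact test (adjusted p = 0.081). Of the 17 tested, 4 were higher and 7 lower in replicate 2 by the exact test, with a median ratio of -0.05.

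The partners of bikunin and the relatives of the fetuins held Itih2, a heavy chain to which bikunin is joined, at 303 ± 27.1 TPM (SD, n = 2), Kng1 at 216 TPM and the cystatin Cst3 at 103 ± 8.99 TPM. The transcript of Ambp thus stood above that of each heavy chain listed, Itih1 being at 25.5 ± 1.75 TPM. Tnfaip6, whose product moves heavy chains onto hyaluronan, was lowest, with 13 counts in replicate 2 and 18 counts in replicate 1. Its log2 ratio of -1.15 did not pass the exact test (adjusted p = 0.090). Of the 8 genes, 1 was higher and 1 lower in replicate 2 by the exact test, with a median ratio of -0.03.

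For copper and heme, the copper chaperone Atox1 averaged 111 ± 13.2 TPM, the heme oxygenase Hmox1 71.7 ± 20.6 TPM and the copper importer Slc31a1 22.6 ± 2.40 TPM (SD, n = 2). Atp7b, the pump that loads copper into ceruloplasmin in the liver, had 9.24 TPM in replicate 2 and 8.09 TPM in replicate 1, close to the level of Cp itself. Hephl1, a ferroxidase related to ceruloplasmin, was lowest, with 0 counts in replicate 2 and 2 in replicate 1. In replicate 2, 3 of the 7 tested were higher by the exact test and 0 lower.

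Of the receptors and exporters that meet these proteins, 8 of 9 were found in the annotation. The iron exporter Slc40a1, which works with ceruloplasmin, averaged 45.6 ± 9.07 TPM, Lrp1, the receptor of the heme-hemopexin complex, 16.6 ± 0.544 TPM and Asgr2 10.4 ± 1.77 TPM (SD, n = 2). Cd163, the macrophage receptor of the haptoglobin-hemoglobin complex, was lowest, with 20 counts in replicate 2 and 10 in replicate 1, a mean of 0.025 ± 0.0071 TPM. The exact test called 4 higher in replicate 2 and 0 lower.

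Of 15 cytokines and receptors, Tnfrsf1a (15.4 ± 1.97 TPM), Lifr (6.79 ± 0.530 TPM) and the glucocorticoid receptor Nr3c1 (6.25 ± 0.332 TPM; SD, n = 2) were highest. Lif and Il11 were lowest, each at 0.03 TPM in replicate 2, against 0.01 TPM in replicate 1, and Il6 had 0.07 TPM in replicate 2 and 0.11 TPM in replicate 1. Lif had a log2 ratio of 0.83, from 17 counts in replicate 2 and 6 in replicate 1, and did not pass the exact test (adjusted p = 0.426). Il6 had a log2 ratio of -0.80, from 11 counts in replicate 2 and 12 in replicate 1, and did not pass either (exact test, adjusted p = 0.326). Of 21 signalling genes and factors, 18 were at 1 TPM or more in both libraries, with Hnf4a (20.3 ± 2.84 TPM), Jak1 (19.4 ± 1.34 TPM) and Stat3 (17.1 ± 1.35 TPM; SD, n = 2) highest and Onecut1 lowest at 0.875 ± 0.106 TPM. Of the 14 cytokines and receptors tested, 5 were higher in replicate 2 and 0 lower by the exact test, and of the 21 signalling genes and factors 11 were higher and 2 lower.

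Transcripts of the members were taken from the transcript tables, whose names come from GENCODE M21. Ahsg, Ttr, Hpx, Hp, Orm1 and Orm2 had 1 annotated transcript each. Rbp4-202, which starts at the inner start shown above, held 98.7% of the TPM of Rbp4 in replicate 2 and 98.6% in replicate 1, and the rest was Rbp4-201, which starts upstream. The mm9 junction list gave a second count of the same choice. Its 2 fields of reads, R1 and R2, are not tied to the numbered libraries. Both first exons are joined to the same acceptor. In mm9, 18115 reads crossed chr19:38199138-38199247, the intron behind the inner first exon, and 293 crossed chr19:38199138-38199444, the intron behind the outer one. The outer intron thus took 1.38% of the reads into that acceptor in field R2 and 2.07% in field R1.

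Ambp-201 held 99.9% of the TPM of Ambp in the mean of both libraries, and the intron of its alternative first exon had 12 reads, against 16910 to 61131 in the other 9 introns. Fetub-201 held 66.1% of the TPM of Fetub in replicate 2 and 80.4% in replicate 1, and Fetub-202, which leaves out an internal exon and is annotated from a start beyond the inner window shown above, the remainder. The junction list had 35 reads into that exon and 6 past it. Fetub-204, which starts at the outer Fetub start, was listed at 0 TPM in both libraries. These Fetub shares rest on 269 counts in replicate 2 and 158 in replicate 1.

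Cp had 16 annotated transcripts, of which 13 had counts. By TPM the highest was Cp-213, a 674-base transcript from within the gene, with 39.7% in replicate 2 and 40.8% in replicate 1. In the mm9 data Cp-213 was not the highest: the last intron of its model (chr3:19889241-19892508) had 0 junction reads. Its own 3 exons were all listed at the same mean of 0.165 RPKM (0.255 and 0.074). The last exon of Cp-202 was listed at a mean of 0.794 RPKM (0.589 and 1.00). These exon values repeat along a transcript and so are estimates per transcript model, not separate measures of each exon. By expected counts the highest was Cp-202, of 4029 bases, which spans the gene to its inner last exon, with 67.1% in replicate 2 and 70.1% in replicate 1, whereas Cp-213 held 9.90% of them in replicate 2 and 10.7% in replicate 1. Transcripts annotated as retained introns held 24.7% of the TPM of Cp in replicate 2 and 24.5% in replicate 1. Of its expected counts they held 15.2% in replicate 2 and 15.0% in replicate 1. At the last splice choice, 329 junction reads crossed the intron to the inner last exon (mm9, chr3:19889219-19892508), an intron of Cp-202 and of 1 other transcript, and 5 crossed the intron to the outer exons (chr3:19889219-19905466), so the inner end took 97.7% of the reads from that donor in field R2 and 97.5% in field R1. The outer 3′ end of Cp overlaps Hps3, a gene of lysosome-related organelles on the opposite strand, by 13201 bases in GRCm38. Hps3 had 6.66 TPM in replicate 2 and 5.15 TPM in replicate 1, and 800 junction reads on the strand opposite to Cp lay within Cp.

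**Figure D4:**
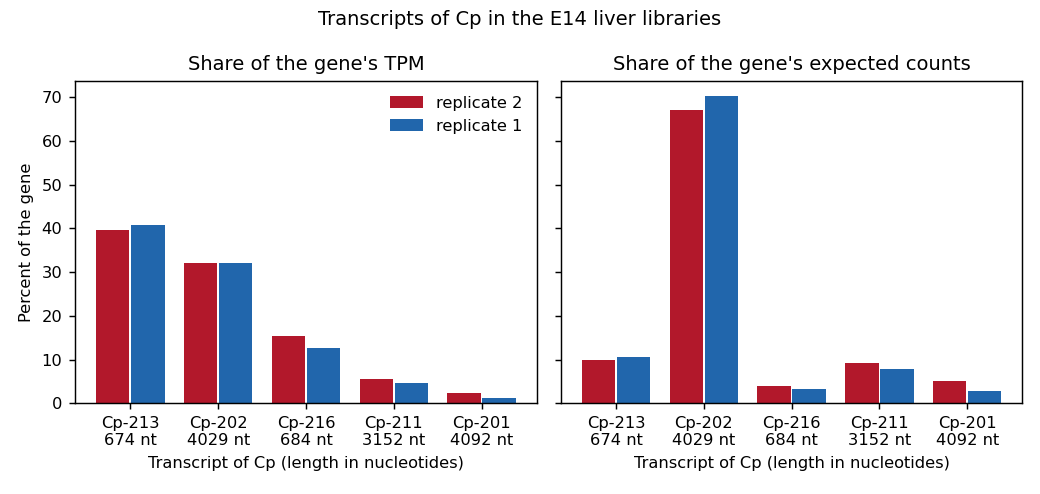
Share of the TPM (left) and of the expected counts (right) of Cp held by its 5 highest transcripts, in replicate 2 (red) and replicate 1 (blue), with lengths in nucleotides under the names. Cp-213 leads by TPM at 39.7% and 40.8% in replicate 2 and replicate 1, and Cp-202 by expected counts at 67.1% and 70.1%.

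Splicing followed the annotated introns of mm9 ENSEMBL models almost throughout. Junctions on the members' strand with at least 2 reads carried 1113890 reads, of which 0.437% (exact 95% interval 0.425% to 0.449%, counting error only) lay off an annotated intron of the gene, 0.438% in field R2 and 0.435% in field R1. Reads were found on every annotated intron of Ahsg (6 of 6, 283238 reads), Ttr (3 of 3, 259685), Rbp4 (6 of 6, 158706), Ambp (10 of 10, 313247), Hpx (9 of 9, 85134) and Hp (4 of 4, 5281). Cp had at least 2 reads on 22 of 26 introns, Fetub on 7 of 10, Orm1 on 3 of 5, which held 9 reads, and Orm2 on 0 of 5. Off the annotated introns, the junction with most reads, 477, was in Rbp4 and joined the donor of the inner first exon to an acceptor 5 bases past the annotated one (mm9, chr19:38199133-38199247), 2.52% of the reads from that donor in field R2 and 2.67% in field R1. Another 457 reads joined the donor of intron 2 of Ttr to the acceptor of intron 3 and so left out the exon between them, 0.398% of the reads from that donor. In Hp, intron 2 had 424 reads, whereas the other 3 had 1392, 1840 and 1625. In Fetub, 50 reads, 12.7% of its junction reads, lay on an unannotated pair of ends (mm9, chr16:22929387-22929709). No junction with at least 2 reads joined the annotated ends 4 bases before them on each side.

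**Figure D5:**
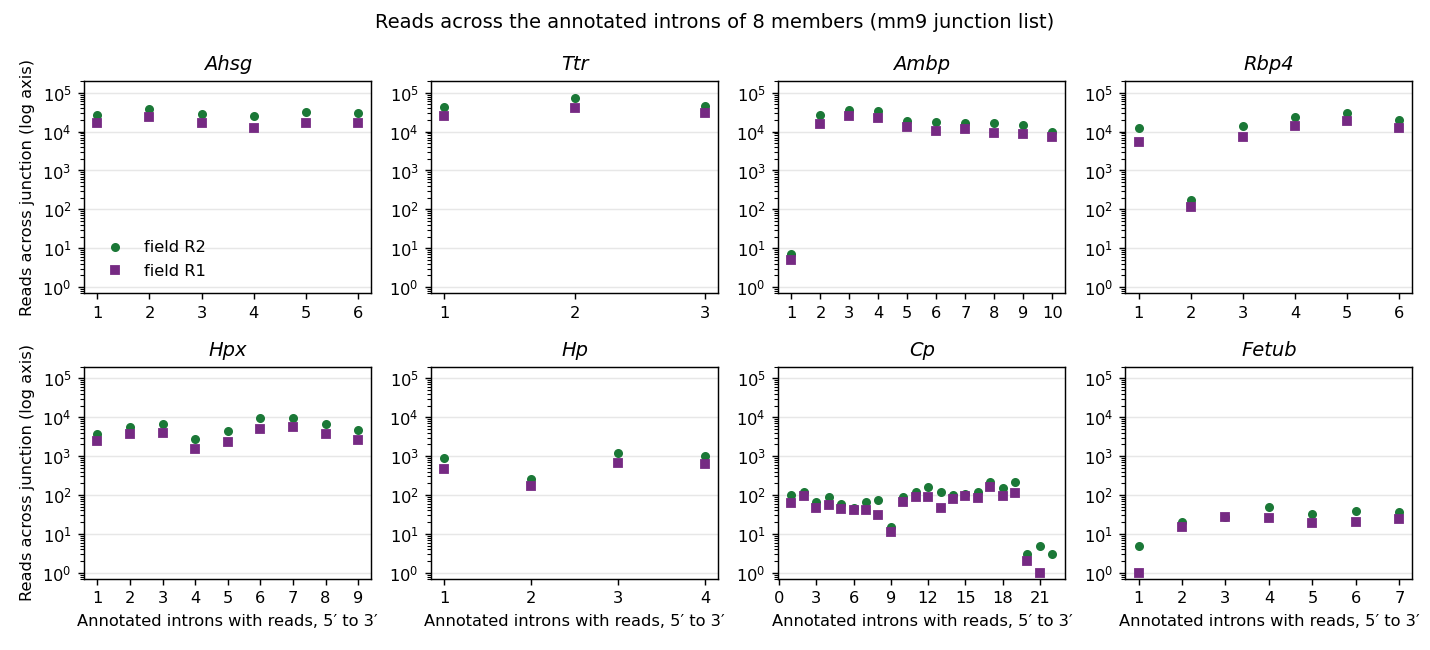
Reads across each annotated intron with at least 2 reads (log axis), numbered in 5′ to 3′ order, for 8 members in the mm9 junction list, with field R2 as green circles and field R1 as purple squares. Reads are within an order of magnitude along Ahsg, Ttr, Hpx and Hp, and the lowest points of 3 genes mark the alternative first introns of Ambp (12 reads) and Rbp4 (293 reads) and the outer 3′ introns of Cp (3 to 6 reads).

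The older mm9 gene table, in RPKM (reads per kilobase and per sequencing depth) for replicates it does not name, gave the members the same order apart from Rbp4 and Ambp, which changed places. Ahsg stood at 175 RPKM, Ttr at 135, Rbp4 at 124, Ambp at 118, Hpx at 27.7, Hp at 5.63, Cp at 1.78 and Fetub at 0.169 RPKM, as means of its 2 values. Orm1 was at 0.0037 RPKM and Orm2 was listed at 0. In the deposited contigs, the stretches of continuous signal called over both replicates together, Ahsg, Ttr, Ambp and Hp were each covered on their own strand by 1 contig, with levels of 187, 124, 88.6 and 11.1 in the authors' unit, whose scale is not stated in the file or labels. Cp was covered by 40 separate contigs on its own strand, with a mean level of 0.892, and by 12 on the opposite strand, where Hps3 lies, with 0.837. Orm2 had no contig on its own strand.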

How the data were processed

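Polyadenylated RNA of 2 E14 liver libraries, 1 group, was quantified by the authors against mm10 with GENCODE M4 annotation, per the deposited notes, with no aligner or quantifier given in the sources used here. The expected count values are estimated fragments per gene or transcript, deposited by the authors and rounded here for tests. The TPM values were scaled by the authors over all features, spike-ins included, and the FPKM values were deposited beside them. The posterior SD of each count, a score per the file headers, was 0 for every member. The junction counts were deposited as whole reads per mm9 junction, and the contig signal as a level over both replicates. The mm9 RPKM were deposited by the authors for ENSEMBL 65 genes.

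Symbols and GRCm38 positions come from GENCODE M21 by gene ID (42462 of 43346 genes matched). The members and lists were chosen with earlier results of these data known. ERCC spike-ins took 3.27% of the counts of replicate 2 and 2.66% of those of replicate 1, and phiX174 took 0.124% of replicate 2 and 0.624% of replicate 1; they were left out of library sizes and tests. Genes with at least 10 counts in total were compared between libraries with TMM sizes (edgeR 4.0.16). The test was an exact conditional binomial test, two-sided and Benjamini-Hochberg adjusted at 0.05. It was checked on counts simulated with counting error alone, which is its own assumption. That check does not bear on other spread between these libraries. With 1 library on each side no quasi-likelihood fit has residual degrees of freedom. From each list the 3 highest and the lowest gene by mean TPM, genes at 1.5-fold or more between the libraries and genes with 0 counts in both are named; a few more are named as partners of a member or for setting, chosen after their values were seen. A pair of genes that this rule selects is not reported here. The hepatoblast and hepatocyte, red cell and other marker lists are given by their sums. Alternatives were DESeq2 1.42.0 size factors, library totals, unscaled TPM with pseudocounts of 0.1 and 1, other filters and thresholds, other units, and each library left out. Scripts ran in R 4.3.3 and in Python 3.11.15 with scipy 1.17.1, pandas 2.3.3 and numpy 2.4.6, and figures were drawn with matplotlib 3.10.9.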

Additional observations from a re-analysis of the deposited data

How the results depend on the processing

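No paired analysis was possible because the study holds 1 group, so no groups share replicate numbers. The count of members at 1.5-fold or more was 0 with DESeq2 size factors, library totals, unscaled TPM at either pseudocount and a threshold of 2-fold. The count past the exact test was 5 of 8 with DESeq2 size factors, against 40.3% of all genes tested, and 6 of 8 with library totals (45.3%). It was 5 of 9 with a filter of 1 count (32.3% of all genes tested) and 5 of 8 with a filter of 100 counts (47.0%). The negative binomial exact test called 0 of 8, against 471 genes (2.54%) overall. That test adds to counting error a dispersion estimated from the same pair of libraries, so its 0 is not a result about the members. The log2 ratio of Ambp, -0.02 with TMM, was 0.035 with library totals (exact test, adjusted p = 9.3e-08) and 0.12 in unscaled TPM with a pseudocount of 0.1 or 1. Hp passed with library totals (0.11, exact test, adjusted p = 4.5e-04). The summed member TPM was 3154 to 3618 with a library left out, 3693 over nuclear genes alone and 7431 when the adult globins were also left out of the total. All 10 members kept their place in FPKM and in expected counts, and 8 kept it in mm9 RPKM; with a library left out 8 to 10 kept it. The share of junction reads off annotated introns was 0.297% with at least 10 reads a junction and 0.476% with at least 1, and 0.435% to 0.438% with the reads of 1 field alone. In expected counts the highest transcript of Cp was Cp-202 at 68.6%, against Cp-213 at 40.3% by TPM. Depth limits the orosomucoids and Fetub most: no difference between libraries could be seen for 0 to 3 counts, and the interval of Fetub spans -0.20 to 0.38.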
